A study of Homo sapiens with 18 samples.

Results

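The vacuolar proton ATPase (V-ATPase) and the proteins that assemble and regulate it were followed in HEK293T cells as 30 genes named by their symbols. They comprised 7 genes of the membrane-bound V0 sector, 12 of the cytosolic V1 sector, 5 of accessory subunits and assembly factors of the endoplasmic reticulum (ER), 4 of the RAVE complex and 2 of TLDc-domain proteins. Of the 30, 29 had a row among the 37096 genes of the table, and the same 29 passed the filter on low values that left 17755 genes for testing. ATP6V1G2 was not analysed here, because its symbol occurred only in the name of a readthrough gene with DDX39B. HEK293T is a human embryonic kidney line that is easily transfected. Cells were transfected with the empty pLEX vector or with MethionaseNLS, a methionine-degrading enzyme with a nuclear localisation signal, and poly-A RNA was sequenced. At 12 h both received DMSO, the vehicle, and at 24 h each received either DMSO or Vps34-IN1, which blocks the lipid kinase VPS34 and was given at 5 µM over 12 h, so that 6 groups of 3 libraries were formed. The labels describe all cells as wild type, name no inactive methionase and do not say how long DMSO was given at 12 h. Separate cultures are not stated for the replicates. The p-values therefore reflect the spread among these libraries, and that spread may be technical.

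The V-ATPase is a rotary pump that spends ATP to move protons into lysosomes, endosomes and the Golgi, and its V1 sector can detach from V0 and be reloaded. Subunits A and B of V1 form the ATP-splitting head, D and F the central rotor, E and G the outer stalks, and C and H hold or regulate the junction with V0. In V0, subunit a and a ring of c subunits carry the protons. Lysosomal acidification by this pump is needed for the breakdown of protein and for amino acid sensing by mTORC1 on the lysosomal surface, where the pump is contacted by the Ragulator complex. Several subunits have paralogs with tissue-restricted use, among them ATP6V1B1 in acid-secreting kidney cells.

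Each library held between 18278586 and 20825682 reads in genes, and the totals were lower in the methionase libraries at 24 h (18278586 to 19031696) than in the vector libraries at 24 h (20240353 to 20825682). The 2 mitochondrial ribosomal RNAs took 0.48% to 0.657% of the reads of the vector libraries at 24 h in DMSO, 0.938% to 2.008% with methionase, 0.985% to 1.354% with Vps34-IN1 and 1.894% to 2.469% with both. Their part in the differences below was not tested. KRT8, KRT18, VIM, NEFM, NEFL and PAX2, listed as present in HEK293T, had reads in all 18 libraries. The blood gene CD3E and the endothelial genes CDH5 and PECAM1 had at most 1.13, 1.08 and 4.09 normalised reads. The hepatocyte genes ALB and APOA1 had at most 20.46 and 6.78. Of the osteoclast genes, TCIRG1 had 155 to 372.5, ATP6V0D2 6.54 to 30.92 and ACP5 at most 4.68. COL1A1, APOA1, TCIRG1 and ATP6V0D2 also had reads in all 18 libraries. Of the fibroblast genes, COL1A1 had 405.5 to 676.6 normalised reads and DCN at most 2.06. In a bulk RNA library fewer cells and less RNA per cell cannot be told apart, and every level below is relative. Shares of reads are relative to all reads in genes of the library. Log2 values and normalised reads are scaled by size factors instead, which need not follow these totals.

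All 29 genes were expressed, but at levels that differed widely. Per kilobase of exon, ATP6V1F had the highest level (4433 normalised reads per kb, mean of the 18 libraries), followed by ATP6V1G1 (1888), ATP6V1E1 (1764), the accessory subunit gene ATP6AP1 (1512) and the c-ring gene ATP6V0C (1504). The lowest levels belonged to WDR7 of RAVE (25.2) and to the tissue-restricted paralogs ATP6V1C2 (33.4) and ATP6V1B1 (45.5). Exon lengths were taken from GENCODE v29 and may differ from those the reads were counted on. ATP6V1E1, ATP6V1G1, ATP6V0E1 and ATP6V0C have processed pseudogenes that can share reads with them, and ATP6V0E2 and ATP6V1B1 have antisense genes whose reads may not have been told apart. The 29 genes together took 0.241% ± 0.0053 of the reads of the vector libraries at 12 h (SD, n = 3) and 0.226% ± 0.0019 of the methionase libraries at 12 h. At 24 h the share was 0.225% ± 0.0025 with vector and 0.197% ± 0.0074 with methionase in DMSO, and 0.213% ± 0.0048 and 0.190% ± 0.0056 in Vps34-IN1. At each time and in each treatment every methionase library was below every vector library in this summed share. The share depends on the rest of the library. At 24 h in DMSO the top 100 genes took 20.31% to 21.18% of reads with vector and 23.3% to 25.22% with methionase. In Vps34-IN1 they took 22.55% to 23.8% and 25.75% to 26.28%. The share need not move with the log2 values. With Vps34-IN1 in vector cells it fell, while the median log2 difference of the 29 genes was 0.05. The cause was not tested. The map of log2 values by library shows each gene separately.

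**Figure D1:**
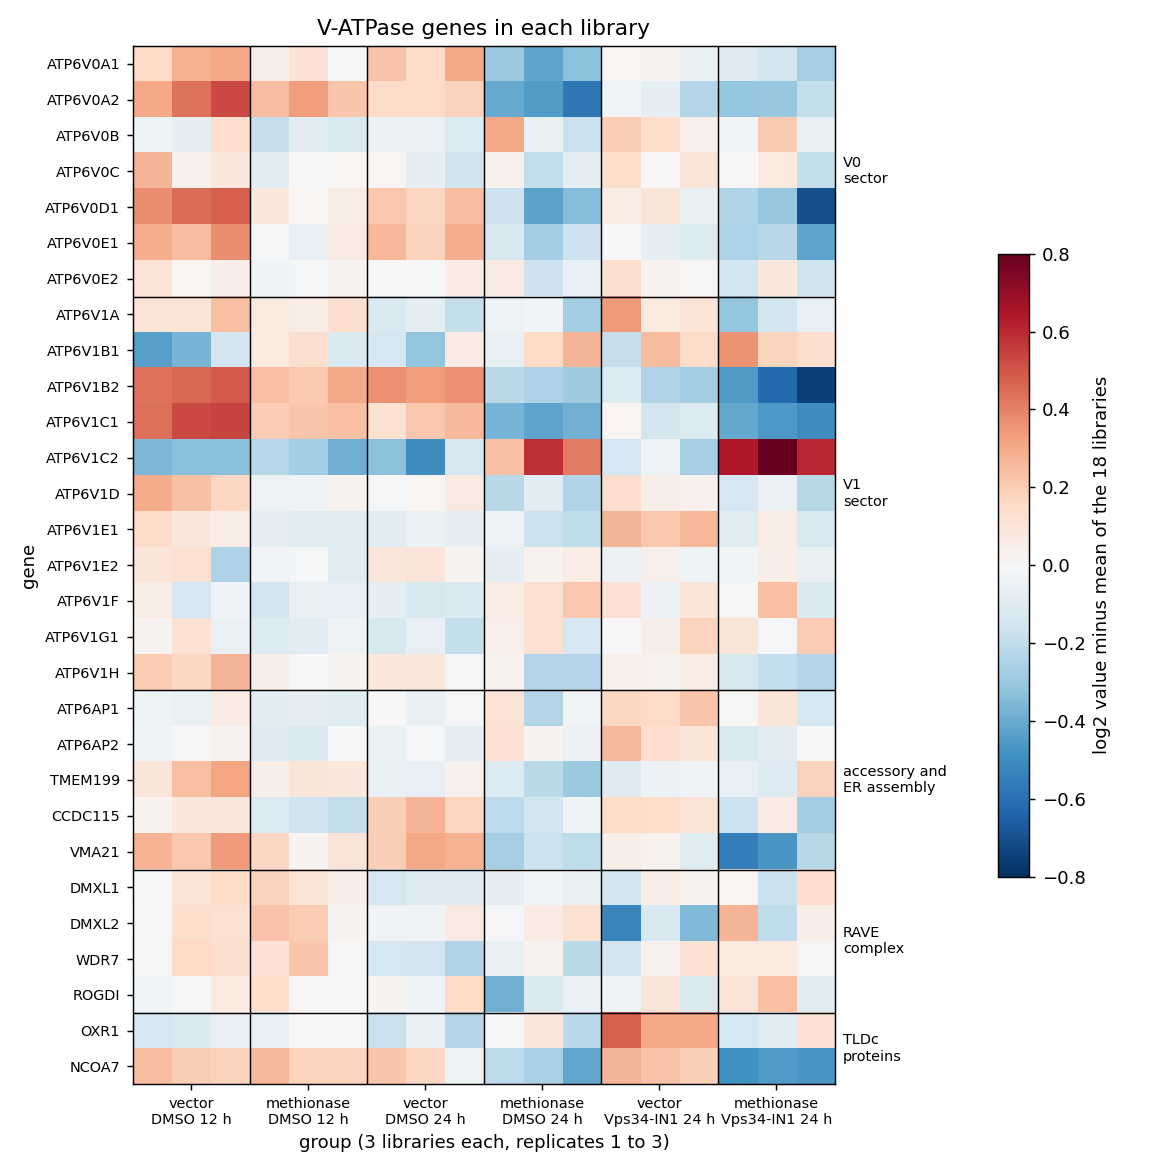
Log2 value of each of the 29 genes (rows, ordered by sector) in each of the 18 libraries (columns, 3 per group) minus the gene's mean over all libraries; red is higher and blue is lower. ATP6V0A1, ATP6V0A2, ATP6V1B2 and ATP6V1C1 are blue in the methionase libraries at 24 h, ATP6V1C2 is red there, and OXR1 is red in the vector libraries with Vps34-IN1.

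Promoter windows, from 250 bases before to 50 after a gene's start, were taken from RefSeq (GRCh38.p14) and were matched for 20 of the 29 genes. The start used for a window can differ from the RefSeq gene bounds given with the genes below: the ATP6V1C2 window lies inside the bounds of its gene. No window was matched for ATP6V0E1, ATP6V1A, ATP6V1B2, ATP6V1C1, ATP6V1E2, ATP6V1H, TMEM199, CCDC115 and OXR1. The core of the element bound by the lysosomal transcription factors TFEB, TFE3 and MITF, CACGTG, was searched on both strands. It was found in 5 of 28 windows of these genes (17.9%), belonging to ATP6V0B, ATP6V0D1, ATP6V0E2 and ATP6V1G1, and in 7.26% of the 35116 windows of all genes. Overlapping windows were counted separately: those of ATP6V0E2 starting at 149872714 and 149872718 hold the same site. The longer TCACGTG, which contains CACGTG, was in the same windows and in 3.71% of all windows. TCATGTGA, a variant of the element, was in the windows of ATP6V0C and VMA21 (1.0% of all windows). The stress motifs TGACTCA (4.95% of all) and TGACGTCA (1.85% of all) were in none of the 28. The windows below are shown because 3 hold CACGTG, in capitals, of which ATP6V0D1 fell with methionase at 24 h and the others were not called, while ATP6V0A2 and ATP6V1C2, without it, had the largest decrease in V0 and the largest increase in V1. The first base of CACGTG lies at -59 from the start in ATP6V0D1, at -58 in ATP6V1G1 and at -57 and -39 in ATP6V0B. The GC content of the 5 windows ranges from 62.0% in ATP6V1G1 to 77.7% in ATP6V1C2.
ATP6V0D1 (chr16:67481108-67481407, minus strand): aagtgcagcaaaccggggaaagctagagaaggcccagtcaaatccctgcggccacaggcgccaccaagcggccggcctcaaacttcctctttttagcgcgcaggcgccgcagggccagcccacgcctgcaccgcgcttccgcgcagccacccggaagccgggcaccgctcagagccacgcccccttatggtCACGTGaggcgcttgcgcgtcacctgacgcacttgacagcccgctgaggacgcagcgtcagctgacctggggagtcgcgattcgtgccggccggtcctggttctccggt
ATP6V1G1 (chr9:114587519-114587818, plus strand): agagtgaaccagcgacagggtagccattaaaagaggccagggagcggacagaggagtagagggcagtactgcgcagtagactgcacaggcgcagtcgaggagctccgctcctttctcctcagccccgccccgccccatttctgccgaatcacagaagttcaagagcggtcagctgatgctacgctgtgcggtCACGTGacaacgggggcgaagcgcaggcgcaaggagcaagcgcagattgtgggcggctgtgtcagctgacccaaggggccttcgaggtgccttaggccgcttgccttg
ATP6V0B (chr1:43974710-43975009, plus strand): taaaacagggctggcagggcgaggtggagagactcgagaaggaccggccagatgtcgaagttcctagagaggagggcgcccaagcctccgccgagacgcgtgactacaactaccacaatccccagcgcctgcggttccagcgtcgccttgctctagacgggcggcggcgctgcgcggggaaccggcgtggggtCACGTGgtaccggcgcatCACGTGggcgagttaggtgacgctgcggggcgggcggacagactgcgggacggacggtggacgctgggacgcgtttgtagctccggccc
ATP6V0A2 (chr12:123712103-123712402, plus strand): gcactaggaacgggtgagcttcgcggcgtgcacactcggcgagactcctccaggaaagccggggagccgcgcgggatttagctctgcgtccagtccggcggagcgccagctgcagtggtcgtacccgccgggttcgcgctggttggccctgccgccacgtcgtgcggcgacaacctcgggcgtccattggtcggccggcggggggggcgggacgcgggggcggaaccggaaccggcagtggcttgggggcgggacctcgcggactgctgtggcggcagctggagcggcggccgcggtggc
ATP6V1C2 (chr2:10721380-10721679, plus strand): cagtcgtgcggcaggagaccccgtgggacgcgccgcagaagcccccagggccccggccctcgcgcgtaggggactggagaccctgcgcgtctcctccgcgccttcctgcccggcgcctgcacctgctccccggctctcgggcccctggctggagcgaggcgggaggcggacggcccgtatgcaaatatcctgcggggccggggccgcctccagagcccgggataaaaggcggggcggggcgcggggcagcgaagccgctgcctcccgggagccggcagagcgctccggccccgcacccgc
A match is a run of letters and not a measured binding site.

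At 24 h in DMSO, methionase lowered the RNA of subunits from both sectors and raised that of 2 V1 subunits. Of the 29 genes, 12 fell and 2 rose, which is 48.3% against 39.2% of all genes tested (41.4% against 21.1% lower and 6.9% against 18.1% higher). The median log2 difference of the 29 genes was -0.07, and that of all genes tested was 0.01. With quantile normalization the split was 4 higher and 9 lower. In V0, 4 of 7 genes fell and none rose, with a median of -0.43. In V1, 4 of 11 fell and 2 rose, with a median of -0.07.

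The V0 genes that fell were those of subunits a, d and e. ATP6V0A1 (chr17:42458878-42522579), the a isoform most used in neurons, held 2687, 2545 and 2843 normalised reads in the vector libraries and 1840.2, 1684 and 1798 in the methionase libraries. All methionase libraries lay below all vector libraries, and the log2 difference was -0.58 ± 0.06 (SE; adjusted p = 1.33e-07). ATP6V0A2 (chr12:123712353-123761755), the a isoform of the Golgi, held 919, 923 and 945 normalised reads with vector and 600.1, 581 and 524 with methionase, again without overlap (-0.64 ± 0.07, adjusted p = 1.906e-07). ATP6V0D1 (chr16:67438019-67481157), which couples the c ring to the rotor, held 1983, 1915 and 2031 normalised reads with vector and 1506, 1239.5 and 1319.7 with methionase. Its libraries did not overlap either, and its log2 difference was -0.52 ± 0.09 (adjusted p = 4.406e-05). ATP6V0E1 (chr5:172983771-173035445), a small membrane subunit, fell from 1099.9, 1035 and 1119.6 to 817, 733 and 794 normalised reads (-0.43 ± 0.07, adjusted p = 1.363e-05). Its paralog ATP6V0E2 held 2582, 2587 and 2703 with vector and 2712, 2294 and 2458 with methionase, which overlapped (-0.08 ± 0.07). The genes of the proton-carrying ring were not called: ATP6V0B had a log2 difference of 0.09 ± 0.09 and ATP6V0C one of 0.00 ± 0.08. CACGTG stood in the windows of a gene that fell, ATP6V0D1, and of genes that were not called, ATP6V0B, ATP6V0E2 and ATP6V1G1. Several genes that fell, ATP6V0E1 among them, had no window, and a link between the motif and the calls was not tested.

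In V1 the largest decreases were in a head subunit and in the junction subunit C. ATP6V1B2 (chromosome 8), the widely used B subunit, held 1696, 1656 and 1693 normalised reads with vector and 1105, 1078 and 1049 with methionase. The libraries of each group lay within a narrow band and did not overlap (-0.60 ± 0.07, adjusted p = 1.313e-07). ATP6V1C1 (chromosome 8), the widely used C subunit, fell from 1340.2, 1435 and 1486 to 929, 893 and 919.7 normalised reads (-0.59 ± 0.06, adjusted p = 4.034e-08). ATP6V1C2 (chr2:10720943-10785110), its tissue-restricted paralog, went the other way, from 68.8, 54.3 and 88.3 to 133, 189 and 159.6 normalised reads, with no overlap. Its log2 difference of 0.73 ± 0.10 (adjusted p = 4.114e-06) understates the change of its reads, from a mean of 70.5 ± 17.1 to 160 ± 28.02 (SD, n = 3), because the transformation compresses low counts. ATP6V1F, a rotor subunit, rose from 3309.8, 3188 and 3205 to 3631, 3802 and 4057 normalised reads (0.24 ± 0.07, adjusted p = 0.01394). Without the methionase DMSO 24 h replicate 3 this call was lost (adjusted p = 0.06684). ATP6V1D, the other rotor subunit, fell by 0.21 on the log2 scale (adjusted p = 0.008128, and 0.05112 with quantile normalization). ATP6V1H, a regulatory subunit, had a log2 difference of -0.20 ± 0.07 (adjusted p = 0.01936), a call lost without any of 4 libraries: vector DMSO 24 h replicate 1 or 2, or methionase DMSO 24 h replicate 2 or 3. The catalytic subunit gene ATP6V1A (0.02 ± 0.08), the stalk genes ATP6V1E1 (-0.07 ± 0.06), ATP6V1E2 (-0.07 ± 0.09) and ATP6V1G1 (0.14 ± 0.07), and ATP6V1B1 (0.25 ± 0.12) were not called. ATP6V1B1, at 72.5, 57.1 and 93 normalised reads with vector and 79.7, 104 and 118 with methionase, was called without vector DMSO 24 h replicate 3 (adjusted p = 0.03651) or methionase DMSO 24 h replicate 1 (0.03866).

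Among the factors that build the pump, VMA21 and CCDC115 fell. VMA21 (chrX:151396595-151409364), a chaperone that escorts V0 out of the ER, held 2274, 2459 and 2406 normalised reads with vector and 1627, 1739.8 and 1699 with methionase. All methionase libraries were lower, by -0.47 ± 0.07 on the log2 scale (adjusted p = 1.206e-05). CCDC115, another ER assembly factor, fell from 555, 590.3 and 545 to 399.7, 418 and 461 normalised reads (-0.35 ± 0.07, adjusted p = 0.000711). Its ER partner TMEM199 had a log2 difference of -0.17 ± 0.08 that was not called (adjusted p = 0.07923). The accessory subunit genes ATP6AP1 (-0.02 ± 0.07) and ATP6AP2 (0.08 ± 0.06) were not called. Of the RAVE genes, whose complex reloads V1 onto V0, DMXL1, DMXL2 and WDR7 were not called. ROGDI, the fourth, was called at the threshold (-0.23 ± 0.09, adjusted p = 0.04808), and 10 of the alternatives, among them leaving out vector DMSO 24 h replicate 1 or 3 or methionase DMSO 24 h replicate 1, lost the call. NCOA7 (chr6:125781115-125932034), a TLDc protein that binds the pump, fell from 639, 613 and 518 to 453, 434 and 382 normalised reads, without overlap (-0.41 ± 0.07, adjusted p = 6.399e-05). The other TLDc gene, OXR1, was not called (0.11 ± 0.08).

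**Figure D2:**
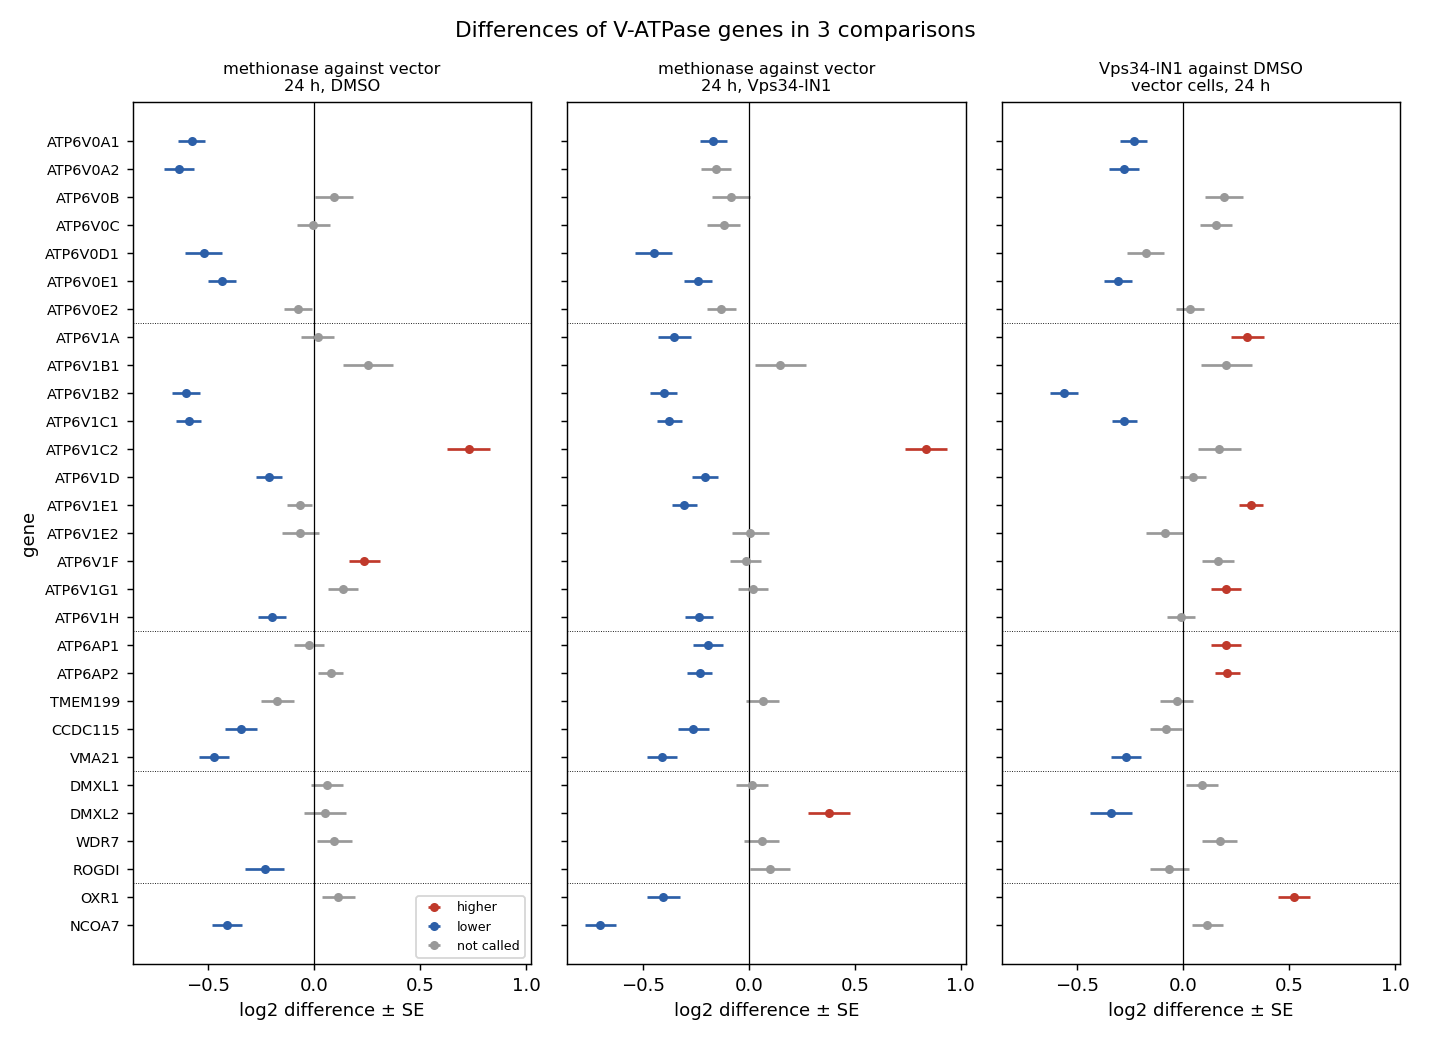
Log2 difference ± SE (horizontal axis) of each of the 29 genes (vertical axis, grouped by sector) in 3 comparisons at 24 h; red is higher, blue is lower and grey is not called at an adjusted p below 0.05. ATP6V0A2 lies at -0.64 in the left panel and ATP6V1C2 at 0.73, and OXR1 is at 0.52 in the right panel.

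With Vps34-IN1 present, methionase again lowered ATP6V1B2, ATP6V1C1, ATP6V0D1 and VMA21 and raised ATP6V1C2, while the a subunit genes differed less. Of the 29 genes, 15 fell and 2 rose (58.6%, against 39.5% of all genes tested; 51.7% against 22.2% lower and 6.9% against 17.3% higher). The median of the 29 was -0.17, beside 0.01 for all genes tested. With quantile normalization 10 were called, 2 higher and 8 lower. In V0, 3 of 7 genes fell and none rose, with a median of -0.16. In V1, 6 of 11 fell and 1 rose, with a median of -0.21, so V0 was not the lower sector here. This comparison and the one in DMSO share no libraries.

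NCOA7 had the largest decrease, from 665, 642 and 623 normalised reads to 361, 369 and 366 (-0.70 ± 0.07, adjusted p = 7.457e-08). The methionase libraries lay close to each other and far below the vector libraries. ATP6V1B2 held 1198, 1087 and 1056 with vector and 924, 811 and 739.5 with methionase (-0.40 ± 0.07, adjusted p = 3.674e-05), and ATP6V1C1 1241, 1096 and 1132 against 901, 869.9 and 842 (-0.38 ± 0.06, adjusted p = 2.266e-05). Neither pair of groups overlapped. ATP6V1C2 rose from 87.7, 97.8 and 74.2 to 199, 236 and 192 normalised reads (0.84 ± 0.10, adjusted p = 7.668e-07), so that every methionase library held more than the highest vector library. VMA21 held 2037, 2008 and 1838 with vector and 1313, 1401 and 1677 with methionase (-0.41 ± 0.07, adjusted p = 8.237e-05). ATP6V0D1 held 1771, 1826 and 1623 against 1422, 1363 and 1009 (-0.45 ± 0.09, adjusted p = 0.0002618), with methionase Vps34-IN1 replicate 3 the lowest of its group.

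The V1 genes ATP6V1A, ATP6V1E1, ATP6V1D and ATP6V1H also fell. ATP6V1A held 3599.9, 2984 and 3044 normalised reads with vector and 2266, 2529 and 2692 with methionase (-0.35 ± 0.08, adjusted p = 0.0008771). ATP6V1E1 held 2989.9, 2866 and 2977 against 2292, 2573 and 2253 (-0.30 ± 0.06, adjusted p = 0.0002222). In both the drug-treated vector libraries were the highest at 24 h, and the methionase libraries overlapped those in DMSO. ATP6V1D (-0.21 ± 0.06), ATP6V1H (-0.23 ± 0.07), ATP6V0E1 (-0.24 ± 0.07), ATP6AP2 (-0.23 ± 0.06) and CCDC115 (-0.26 ± 0.07) fell as well, but each lost its call with quantile normalization (adjusted p = 0.3147 for ATP6V1D, 0.1914 for ATP6V1H, 0.1832 for ATP6V0E1, 0.1337 for ATP6AP2 and 0.07272 for CCDC115). CCDC115 was also lost without methionase Vps34-IN1 replicate 3. ATP6V0A1 (-0.17 ± 0.06, adjusted p = 0.0368) and ATP6AP1 (-0.19 ± 0.07, adjusted p = 0.03644) passed narrowly, and leaving out vector Vps34-IN1 replicate 1 or 2 or methionase Vps34-IN1 replicate 3 ended both calls. Of 15 alternatives, 9 ended the ATP6V0A1 call and 11 that of ATP6AP1, with quantile normalization among them for both. ATP6V0A2, at 807, 771 and 683 with vector and 646, 647 and 708 with methionase, overlapped between groups and was not called (-0.16 ± 0.07). It was called without vector Vps34-IN1 replicate 3 (adjusted p = 0.0286) or methionase Vps34-IN1 replicate 3 (0.0447). OXR1 fell from 1306, 1158 and 1158 to 825, 860.0 and 998 normalised reads (-0.40 ± 0.08, adjusted p = 0.0002282). DMXL2, a scaffold of RAVE, rose from 384, 531 and 443 to 729, 501 and 613 (0.38 ± 0.10, adjusted p = 0.004042), and its groups overlapped. The uncalled genes were ATP6V0A2, ATP6V0B, ATP6V0C, ATP6V0E2, ATP6V1B1, ATP6V1E2, ATP6V1F, ATP6V1G1, TMEM199, DMXL1, WDR7 and ROGDI.

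Whether the methionase difference itself changed with the drug was tested as an interaction, in which 2 genes were higher and 5 lower (24.1%, against 21.8% of all genes tested; 6.9% against 9.92% higher and 17.2% against 11.9% lower). With quantile normalization the split was 5 higher and 2 lower. ATP6V0A1 and ATP6V0A2 had positive interactions, of 0.41 ± 0.09 (adjusted p = 0.001705) and 0.48 ± 0.10 (adjusted p = 0.001233): the decrease seen in DMSO was smaller in the drug. ATP6V0A1 held 2309, 2324 and 2190.0 normalised reads in the drug-treated vector libraries and 2121, 2051 and 1882 in the drug-treated methionase libraries, which lay closer together than the groups in DMSO. OXR1 (-0.52 ± 0.11, adjusted p = 0.001492), ATP6AP2 (-0.31 ± 0.08, adjusted p = 0.009393) and ATP6V1A (-0.37 ± 0.11, adjusted p = 0.0174) had negative interactions. ATP6AP2, the prorenin receptor, held 2762, 2847 and 2712 with vector and 3118, 2916 and 2767 with methionase in DMSO, and 3439.9, 3149 and 3069 and then 2632, 2696 and 2860.0 in the drug. Its mean was highest in the drug-treated vector cells, although methionase DMSO 24 h replicate 1 lay above the lowest of these libraries. The ATP6AP2 call was lost with quantile normalization (adjusted p = 0.05516), and that of ATP6V1A without methionase DMSO 24 h replicate 2, vector Vps34-IN1 replicate 1 or methionase Vps34-IN1 replicate 1 (up to adjusted p = 0.06273). ATP6V1E1 (-0.24 ± 0.08, adjusted p = 0.0423) and NCOA7 (-0.29 ± 0.10, adjusted p = 0.04281) passed narrowly, and most alternatives with a library left out ended both calls.

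**Figure D3:**
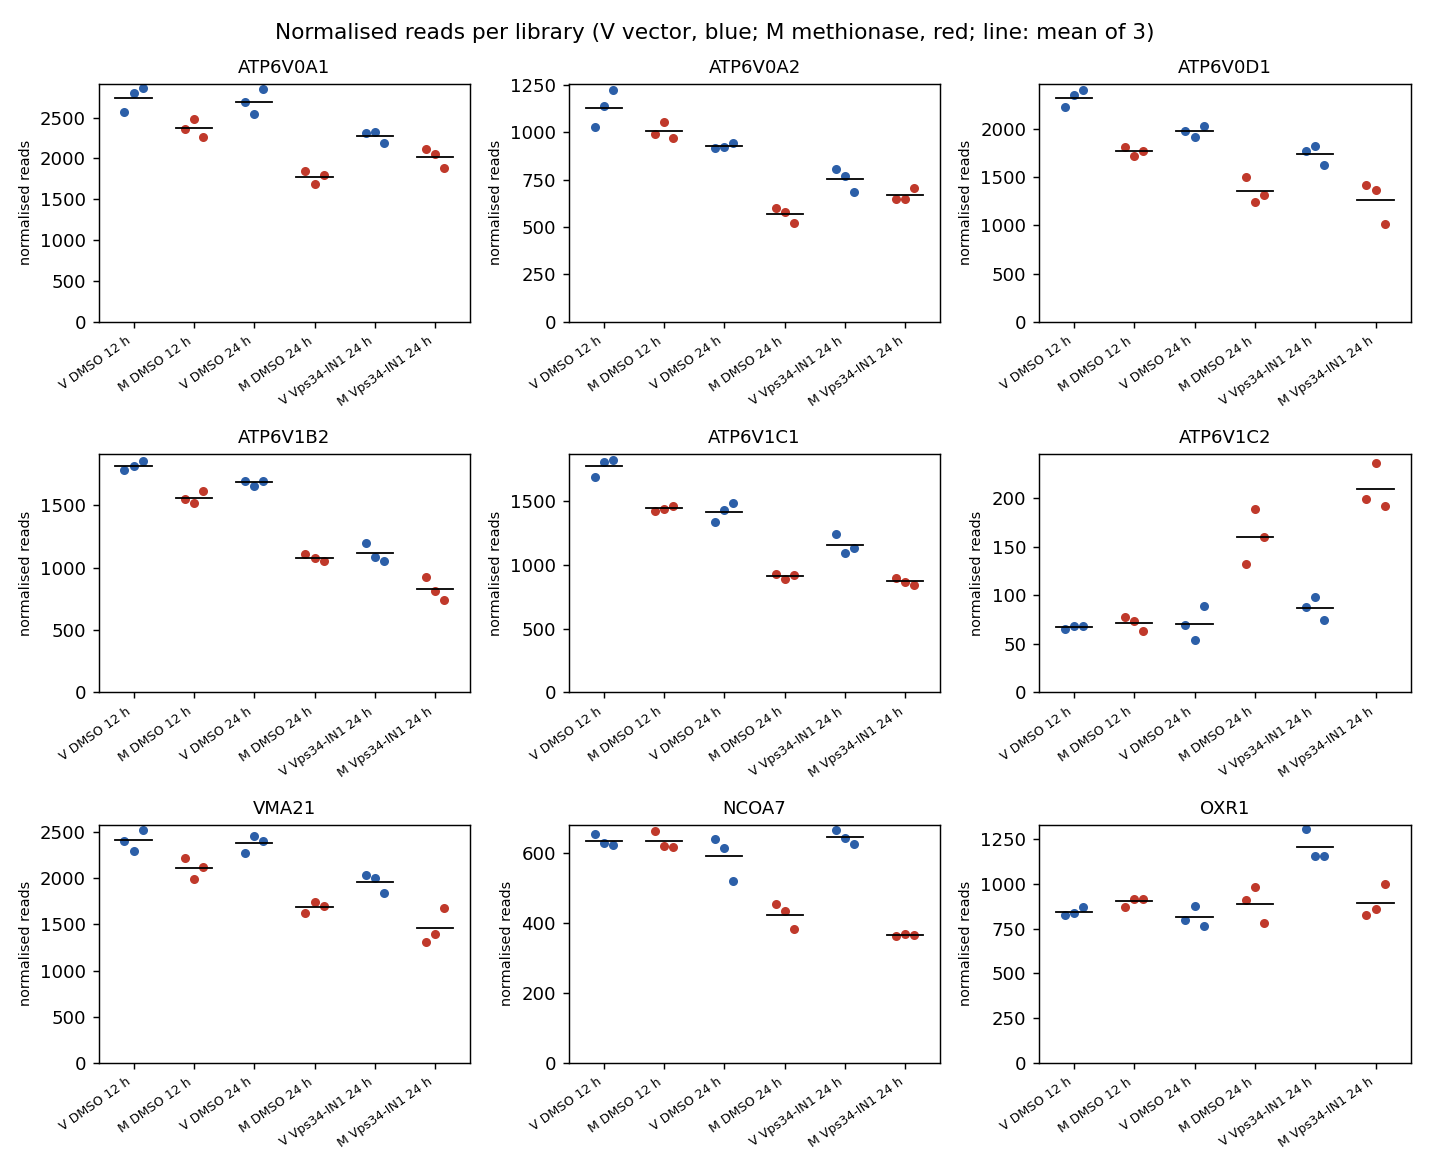
Normalised reads (vertical axis, from 0) of 9 genes in each library by group (V, vector, blue; M, methionase, red; the line is the mean of 3). ATP6V0A1, ATP6V0A2, ATP6V1B2 and ATP6V1C1 are lower in the methionase libraries at 24 h in DMSO than in the vector libraries, ATP6V1C2 is higher with methionase in both treatments at 24 h, and OXR1 is highest in the vector libraries with Vps34-IN1.

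Vps34-IN1 in vector cells lowered ATP6V1B2 and raised OXR1, ATP6V1E1 and ATP6V1A, with shares of called genes near those of all genes. Of the 29 genes, 6 rose and 7 fell (44.8%, against 40.1% of all genes tested; 20.7% against 20.2% higher and 24.1% against 19.9% lower). The median of the 29 was 0.05, beside 0.00 for all genes tested, and the split was 4 and 8 with quantile normalization and 10 and 7 with equal library medians. This comparison shares its DMSO libraries with methionase against vector in DMSO, and its drug libraries with methionase against vector in the drug, so their values are given side by side only. In V0, ATP6V0A1 (-0.23 ± 0.06, adjusted p = 0.004347), ATP6V0A2 (-0.28 ± 0.07, adjusted p = 0.003036) and ATP6V0E1 (-0.31 ± 0.07, adjusted p = 0.000632) fell, and the other 4 were not called. ATP6V0E1 held 899, 853 and 829 normalised reads in the drug-treated vector libraries, all below those in DMSO.

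ATP6V1B2 had the largest decrease: its drug-treated vector libraries overlapped the methionase libraries in DMSO (-0.56 ± 0.07, adjusted p = 3.611e-07). ATP6V1C1 fell by 0.28 on the log2 scale (adjusted p = 0.000532). The head gene ATP6V1B1 (0.20 ± 0.12) and the stalk gene ATP6V1E2 (-0.09 ± 0.09) were not called, the former except without vector Vps34-IN1 replicate 1 (adjusted p = 0.03398) or with array quality weights. ATP6V1A rose by 0.30 ± 0.08 (adjusted p = 0.002957), ATP6V1E1 by 0.32 ± 0.06 (adjusted p = 0.0001116) and ATP6V1G1 by 0.20 ± 0.07 (adjusted p = 0.02634). In the drug ATP6V1A and ATP6V1E1 did not overlap with DMSO, where ATP6V1A held 2584, 2687 and 2461 normalised reads and ATP6V1E1 2318, 2366 and 2338. ATP6V1G1 held 1854, 1938 and 1772 in DMSO and 2029, 2102 and 2313 in the drug. ATP6AP1 (0.20 ± 0.07, adjusted p = 0.02607) and ATP6AP2 (0.21 ± 0.06, adjusted p = 0.006708) also rose, and both of these and ATP6V1G1 lost their calls with quantile normalization (adjusted p = 0.4175 for ATP6AP1 and 0.1299 for ATP6AP2). The ATP6V1G1 and ATP6AP1 calls were further lost without vector DMSO 24 h replicate 3 or vector Vps34-IN1 replicate 3, among others.

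OXR1 rose most, from 801, 875 and 768 to 1306, 1158 and 1158 normalised reads (0.52 ± 0.08, adjusted p = 9.464e-06), with all drug-treated libraries above all DMSO libraries. OXR1 is a TLDc protein linked to the release of V1 from V0. VMA21 (-0.27 ± 0.07, adjusted p = 0.004026) and DMXL2 (-0.34 ± 0.10, adjusted p = 0.008134) fell. DMXL2 held 575, 575 and 622 normalised reads in DMSO and 384, 531 and 443 in the drug, and without vector Vps34-IN1 replicate 1, the lowest of these, it was not called (adjusted p = 0.06706). NCOA7 was not called (0.11 ± 0.07), and neither were WDR7, ROGDI, DMXL1, TMEM199 and CCDC115.

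In methionase cells the same drug left 1 called gene of 29 (3.45%, against 7.93% of all genes tested; 0 against 2.95% higher and 3.45% against 4.98% lower). ATP6V1B2 fell from 1105, 1078 and 1049 to 924, 811 and 739.5 normalised reads (-0.36 ± 0.07, adjusted p = 0.001235), without overlap. Fitted on these 2 groups only, it was not called (adjusted p = 0.0577). The count at an unadjusted p below 0.05 was 8 of 29, but the share of all genes at that threshold was not computed. With quantile normalization 3 genes were called, 2 higher and 1 lower, and with equal library medians 4, 3 higher and 1 lower.

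At 12 h, methionase lowered 4 of the 29 genes and raised none (13.8%, against 2.17% of all genes tested; 0 against 0.681% higher and 13.8% against 1.49% lower). Their median was -0.11, beside 0.00 for all genes tested, and 22 of the 29 differences were negative. The 4 were ATP6V1C1 (-0.28 ± 0.06, adjusted p = 0.01409), ATP6V0E1 (-0.31 ± 0.07, adjusted p = 0.01643), ATP6V0D1 (-0.38 ± 0.09, adjusted p = 0.02344) and ATP6V1D (-0.25 ± 0.06, adjusted p = 0.034). ATP6V1C1 held 1694, 1808 and 1823 normalised reads with vector and 1426, 1444 and 1465 with methionase. ATP6V0D1 held 2227, 2349 and 2401 against 1809.7, 1719 and 1771. ATP6V0E1 held 1121, 1084 and 1193 against 892, 858 and 949.6. In these 3 the methionase libraries stood clear of the vector libraries, as did those of ATP6V1D, at 1500.1, 1429.8 and 1363 against 1169.7, 1178 and 1229.6. All 4 calls were lost without vector 12 h replicate 3, methionase 12 h replicate 1 or methionase 12 h replicate 2, and that of ATP6V1D without any of the 6 libraries. With quantile normalization none was called. ATP6V1C2, which rose at 24 h, was not called at 12 h: its libraries held 65.6, 68.1 and 68.2 normalised reads with vector and 77.7, 73.6 and 63 with methionase. ATP6V1B1, at 47.8, 53 and 71 against 94.5, 100.02 and 74.6, did not overlap but was not called either (0.35 ± 0.12, adjusted p = 0.1195).

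From 12 h to 24 h in vector cells, 6 genes fell and none rose (20.7%, against 11.5% of all genes tested; 0 against 4.61% higher and 20.7% against 6.88% lower). ATP6V1C1 fell by 0.31 on the log2 scale (adjusted p = 0.001736), and this was the call of the 6 that every alternative kept. ATP6V1A fell from 3055, 3049.8 and 3352 to 2584, 2687 and 2461 normalised reads (-0.28 ± 0.08, adjusted p = 0.01988), and ATP6V0A2 from 1029.7, 1137 and 1222 to 919, 923 and 945 (-0.26 ± 0.07, adjusted p = 0.02003). ATP6V1D (-0.20 ± 0.06), TMEM199 (-0.25 ± 0.08) and WDR7 (-0.27 ± 0.08), a RAVE subunit, were the rest. The 5 calls other than ATP6V1C1 were each lost without vector DMSO 24 h replicate 1 and without 2 or more other libraries.

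In methionase cells, 13 genes fell and 2 rose over the same interval (51.7%, against 39.8% of all genes tested; 44.8% against 21.3% lower and 6.9% against 18.4% higher). ATP6V0A2 fell from 989, 1057 and 969 to 600.1, 581 and 524 normalised reads (-0.74 ± 0.07, adjusted p = 2.937e-08). ATP6V1C1 (-0.62 ± 0.06, adjusted p = 2.946e-08), ATP6V1B2 (-0.50 ± 0.07, adjusted p = 2.259e-06), NCOA7 (-0.50 ± 0.07, adjusted p = 6.245e-06), ATP6V0A1 (-0.40 ± 0.06, adjusted p = 2.087e-05), ATP6V0D1 (-0.37 ± 0.09, adjusted p = 0.001725), VMA21 (-0.31 ± 0.07, adjusted p = 0.001387) and TMEM199 (-0.28 ± 0.08, adjusted p = 0.005784) fell as well. NCOA7 held 662, 618 and 616 normalised reads at 12 h, overlapping those of vector, and 453, 434 and 382 at 24 h. ATP6V1C2 (0.71 ± 0.10, adjusted p = 6.495e-06) and ATP6V1F (0.22 ± 0.07, adjusted p = 0.01995) rose, the latter not without methionase 12 h replicate 1 or methionase DMSO 24 h replicate 3 (up to adjusted p = 0.09085). The calls of ATP6V0E1, ATP6V1A, ATP6V1D, ATP6V1H and ROGDI, between -0.17 and -0.23, were each lost without methionase 12 h replicate 1 and under several other alternatives.

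Whether the methionase difference changed between 12 h and 24 h was tested as a second interaction, with 1 gene higher and 5 lower (20.7%, against 11.7% of all genes tested; 3.45% against 5.33% higher and 17.2% against 6.33% lower). With equal library medians 2 were higher and 5 lower. ATP6V0A2 (-0.48 ± 0.10, adjusted p = 0.002632), ATP6V0A1 (-0.38 ± 0.09, adjusted p = 0.007093), ATP6V1B2 (-0.40 ± 0.09, adjusted p = 0.006784), NCOA7 (-0.41 ± 0.10, adjusted p = 0.009717) and ATP6V1C1 (-0.31 ± 0.08, adjusted p = 0.01683) were further below vector at 24 h than at 12 h. ATP6V1C2 was further above it (0.69 ± 0.14, adjusted p = 0.002757). At 12 h ATP6V1B2 held 1780.3, 1811 and 1853 normalised reads with vector and 1549.6, 1514 and 1616 with methionase, and ATP6V0A1 2564, 2794 and 2856 against 2365, 2486 and 2261. Both were lower in every methionase library at 12 h without being called there (adjusted p = 0.09097 and 0.08851). The ATP6V1C1 interaction was not called without vector DMSO 12 h replicate 1 (adjusted p = 0.05319). ATP6V0D1 and ATP6V0E1, which already fell at 12 h, had interactions of -0.14 and -0.13 that were not called.

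These changes altered the balance within paralog pairs, given here as shares of the pair's reads per exon length. ATP6V1C2 made up 6.07% ± 0.102 of the C subunit pair in vector cells at 12 h (SD, n = 3) and 7.76% ± 0.855 with methionase. At 24 h in DMSO it made up 7.76% ± 1.586 with vector and 22.9% ± 3.445 with methionase, and in Vps34-IN1 11.3% ± 1.653 and 28.96% ± 2.302. The libraries at 24 h did not overlap: the highest vector share was 13.18% and the lowest methionase share 19.54%. ATP6V1B1 made up 6.12% ± 1.337 of the B subunit pair with vector and 12.1% ± 2.322 with methionase at 24 h in DMSO, and 11.4% ± 3.128 and 16.7% ± 0.449 in the drug. ATP6V1B1 itself was called in no comparison, and ATP6V1B2 fell in both. ATP6V0E1 made up 42.5% ± 0.762 of its pair with vector and 36.0% ± 0.864 with methionase at 24 h in DMSO, without overlap. In the drug its share was 36.4% ± 0.224 with vector and 34.35% ± 1.712 with methionase, and these libraries overlapped. ATP6V0A1 kept 80.34% to 85.74% of the A1 and A2 pair in all 18 libraries. ATP6V1E1 kept 96.37% to 97.8% of its pair. DMXL1 made up 44.0% ± 1.009 of the DMXL pair in vector cells at 24 h in DMSO and 52.6% ± 2.33 in Vps34-IN1, and 44.2% ± 1.209 and 45.4% ± 3.539 in methionase cells. These shares restate the reads given above and were not tested.

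**Figure D4:**
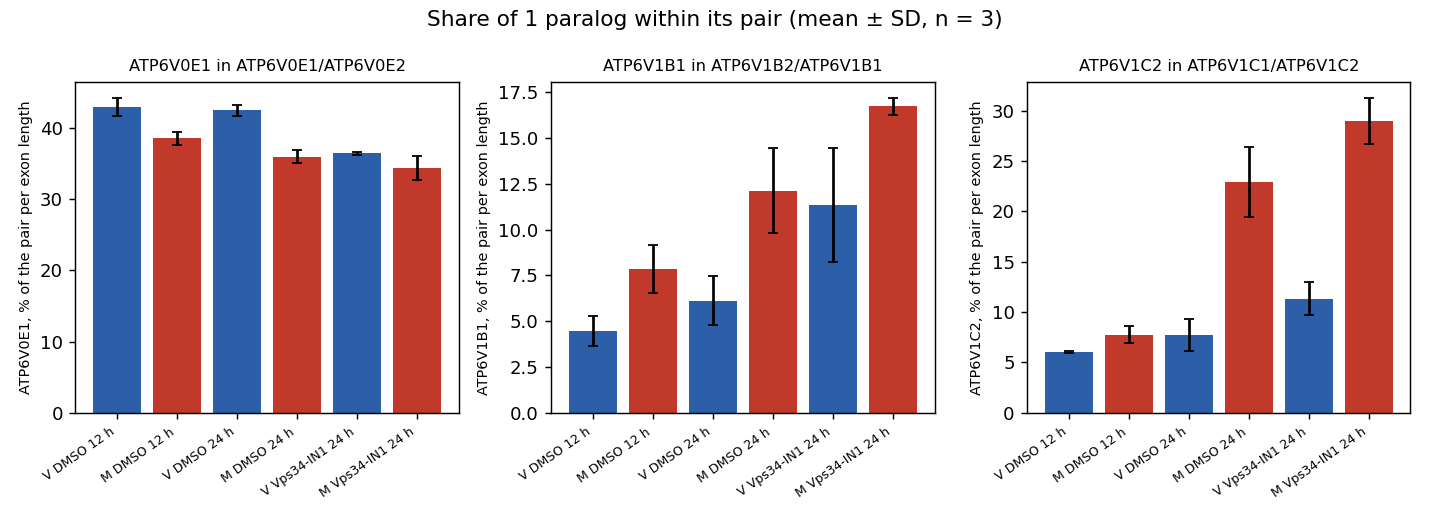
Share of 1 paralog in its pair, in percent of the pair's normalised reads per exon length (vertical axis, from 0), by group (V, vector; M, methionase); bars are means and error bars SD of 3 libraries. ATP6V1C2 lies at 7.76% with vector and 22.9% with methionase at 24 h in DMSO, and ATP6V0E1 lies at 42.5% and 36.0%.

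Genes for other parts of the lysosome were set beside the pump in the same libraries. Of 29 tested lysosomal hydrolase and membrane protein genes, 6 rose and 1 fell with methionase at 24 h in DMSO (median 0.02), beside 18.1% higher and 21.1% lower among all genes tested. MANBA, a lysosomal mannosidase, rose by 0.31 ± 0.07 (adjusted p = 0.0006205). With Vps34-IN1 in vector cells 13 of these 29 rose and none fell, beside 20.2% higher and 19.9% lower among all genes tested. GLA, an alpha-galactosidase (1.18 ± 0.09, adjusted p = 8.037e-10), and HEXA, a hexosaminidase subunit (0.33 ± 0.06, adjusted p = 5.831e-05), were among them. With methionase in the drug none rose and 11 fell, beside 17.3% higher and 22.2% lower among all genes tested, led by SCARB2 (-0.40 ± 0.06, adjusted p = 2.527e-05) and LAMP2 (-0.34 ± 0.06, adjusted p = 4.011e-05). The drug-treated vector libraries enter this comparison and that of the drug in vector cells with opposite signs. Of 3 tested MiT/TFE factor genes, TFE3 was higher with methionase at 24 h in DMSO (0.35 ± 0.07, adjusted p = 0.0001631) and none was lower. With the drug in vector cells TFE3 (0.50 ± 0.07, adjusted p = 2.066e-06) and MITF (0.37 ± 0.10, adjusted p = 0.004663) were higher and none was lower. With methionase in the drug 1 of the 3 fell and none rose. The shares among all genes tested were those given above for the same comparisons. Of 6 genes of Ragulator and SLC38A9, the lysosomal arginine sensor that contacts the pump, 3 fell and none rose with methionase at 24 h in DMSO (18.1% higher and 21.1% lower among all genes tested), and 2 fell and 2 rose with methionase in the drug (17.3% and 22.2% among all genes tested, higher and lower). SLC38A9 had a log2 difference of -0.84 ± 0.07 in DMSO (adjusted p = 9.154e-09) and of -0.32 ± 0.07 in the drug (adjusted p = 0.001556), where LAMTOR4 rose (0.28 ± 0.08, adjusted p = 0.007841).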

How the data were processed

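Poly-A RNA was measured in 18 libraries of HEK293T cells, 3 per group, grouped by their titles. The tools named, without their roles, are limma, DESeq2, featureCounts and STAR 2.7.10b, with genome build hg38, per the submitters' processing notes; the annotation and the strand setting of the counting are not given in the sources used here, and the library kit marked strand with dUTP, per the labels' protocols. A table of variance-stabilised log2 values (lowest value 5.45) was deposited by the authors. Of its 37097 lines, 1 named no gene and took at most 0.0022% of a library's reads. Undoing the transformation gave reads that were whole within 0.01 for 100% of values; normalised reads are these divided by size factors of 0.89 to 1.09.

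The log2 values of 17755 genes with a mean at least 0.5 above the lowest value entered a limma fit (limma 3.58.1, R 4.3.3) over all 18 libraries, with a mean for each group and a variance trend. Calls were made where the Benjamini-Hochberg adjusted p, over all genes tested in a comparison, was below 0.05; no correction was made over the 9 comparisons. The procedure was tested on simulated reads with an assumed spread, in which few genes were changed. For methionase against vector at 24 h in DMSO it recovered 14% of 1.2-fold and 96% of 1.5-fold changes, and 4.35% of the calls were false. A gene that was not called can therefore still differ by a small amount. Of the 37096 symbols, 36162 matched a RefSeq symbol. No 2 libraries of a group agreed within sampling noise (chi-square per gene of 2.523 or more).

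The genes followed and the lists beside them were chosen with earlier results of these data known. Values in every library were given for up to 5 called genes with the lowest adjusted p in each direction of a comparison, for those called against their sector or in an interaction, and for paralog pairs of which 1 was called. Some genes of the lists beside them are not reported here. Alternatives were no filter, a stricter filter, quantile normalization, equal library medians, no variance trend, array quality weights, only the groups compared, a replicate block, limma voom on the recovered reads and each library left out. Log2 differences of genes with few reads are understated. Python 3.11.15, numpy 2.4.6 and pandas 2.3.3 were used.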

Additional observations from a re-analysis of the deposited data

Results flagged for a closer look

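In 7 genes the methionase difference at 24 h differed between DMSO and Vps34-IN1 by the test of the interaction. It was 0.41 for ATP6V0A1, 0.48 for ATP6V0A2, -0.37 for ATP6V1A, -0.24 for ATP6V1E1, -0.31 for ATP6AP2, -0.52 for OXR1 and -0.29 for NCOA7 on the log2 scale. The a subunit genes of V0 were less far below vector in the drug than in DMSO, and the other 5 had a lower methionase difference in the drug than in DMSO. In 6 genes the methionase difference in DMSO differed between 24 h and 12 h by the same kind of test. It was -0.38 for ATP6V0A1, -0.48 for ATP6V0A2, -0.40 for ATP6V1B2, -0.31 for ATP6V1C1, 0.69 for ATP6V1C2 and -0.41 for NCOA7. ATP6V0A1, ATP6V0A2 and NCOA7 were in both sets. Both interactions share the DMSO libraries at 24 h, so the sets do not count as independent.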

How the results depend on the processing

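Over the 9 comparisons 83 calls of these genes were made; 47 were kept under every alternative, 36 were lost under at least 1 and none changed sign. The number called with methionase at 12 h was 0 with quantile normalization, 2 without a filter and 11 with array quality weights or only the groups compared, against 4. Over all genes tested the calls were 185, 178 (of 37096), 2135 and 1561 in that order, against 385. With methionase in the drug the number was 10 with quantile normalization, against 17 (all genes tested: 6239, against 7016). For the drug in methionase cells it was 3 with quantile normalization, 4 with equal library medians and 0 with only the groups compared, against 1. Over all genes tested the calls were 1616, 1504 and 296, against 1408. For time in vector cells the number was 2 without a filter and 11 with array quality weights or only the groups compared, against 6. Over all genes tested the calls were 1290 (of 37096), 5186 and 3507, against 2039. The causes were not tested. With 1 library left out, the counts ranged from 0 to 3 (methionase, 12 h), 12 to 15 (methionase, 24 h, DMSO), 15 to 18 (methionase in the drug), 11 to 14 (drug, vector cells), 1 to 4 (drug, methionase cells), 1 to 5 (time, vector cells), 9 to 14 (time, methionase cells), 4 to 10 (methionase by drug) and 5 to 7 (methionase by time). Over all genes tested, the counts for methionase at 12 h with 1 library left out ranged from 18 to 238. At 12 h, 12 genes had an unadjusted p below 0.05, and limma voom called 4 (478 of all genes tested). The share of all genes at that unadjusted threshold was not computed.

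Uncalled values near 0 changed sign in some settings. With quantile normalization they were 0.0076 for ATP6V0E2 and -0.0053 for ATP6V1C2 (methionase, 12 h), 0.0000 for ATP6V0E2 and -0.0972 for ATP6V1E2 (methionase in the drug), -0.0519 for ATP6V0E2 and 0.0160 for ATP6V1E2 (drug, vector cells), and 0.0392 for ATP6V0A1 and -0.0227 for ATP6V1C2 (time, vector cells). ATP6V1C2 was -0.0004 there with equal medians, and DMXL1 -0.0525 with array weights (methionase in the drug). With a library left out they ranged from -0.0253 to 0.0351 for ATP6V1E2 and from -0.0572 to 0.0991 for DMXL1 (methionase in the drug), from -0.0049 to 0.0533 for ATP6V0E2 (drug, vector cells), from -0.0691 to 0.0146 for ATP6V0A1 and from -0.0698 to 0.1166 for ATP6V1C2 (time, vector cells), and from -0.1069 to 0.0099 for ATP6V0E2 (time, methionase cells).

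Replicate numbers did not pair the samples: same-numbered libraries correlated between -0.3078 and 0.3521 in their deviations from group means (45 pairs, 13 over 0.1), and 6 of 18 libraries correlated best with their own number. With a replicate block, 13 genes were called with methionase at 24 h in DMSO, 13 for time in methionase cells and 6 for the methionase by drug interaction, and the other 6 counts did not move. No scaling moved the median of all genes by over 0.1. ATP6V1C2 and ATP6V1B1, with the fewest reads, are the least precise.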

Other observations

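Paralogs and TLDc genes outside the 30 were measured in the same libraries. Of 8 listed, 5 were tested. TCIRG1, the a subunit isoform of osteoclasts and lysosomes, rose with methionase at 24 h in DMSO (0.27 ± 0.09, adjusted p = 0.02715) and in Vps34-IN1 (0.46 ± 0.09, adjusted p = 0.0005125). ATP6V0A1 fell in both, in Vps34-IN1 with a call that was lost under 9 of 15 alternatives. MEAK7, a TLDc protein at the lysosome, fell with methionase at 24 h in DMSO (-0.60 ± 0.07, adjusted p = 7.54e-07) and with the drug in vector cells (-0.42 ± 0.07, adjusted p = 8.58e-05), and its interaction between them was 0.43 ± 0.10 (adjusted p = 0.004636). All of these log2 differences, other than that of TCIRG1 in Vps34-IN1, use the same vector libraries at 24 h in DMSO. ATP6AP1L fell with the drug in vector cells (-0.45 ± 0.11, adjusted p = 0.002116).

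Of 12 lysosomal and endosomal ion channel and exchanger genes, 4 fell and none rose with methionase at 24 h in DMSO, beside 21.1% lower and 18.1% higher among all genes tested. TPCN2, a lysosomal cation channel, had a log2 difference of -0.45 ± 0.07 (adjusted p = 4.247e-05). In Vps34-IN1, 5 fell and 3 rose with methionase, beside 22.2% lower and 17.3% higher among all genes tested. CLCN3, an endosomal chloride-proton exchanger, fell (-0.60 ± 0.06, adjusted p = 6.412e-08), and TPCN1 rose (0.69 ± 0.09, adjusted p = 2.265e-06). The drug in vector cells raised CLCN3 (0.31 ± 0.06, adjusted p = 0.0002641) and lowered TPCN1 (-0.47 ± 0.09, adjusted p = 0.0001752). This comparison and that of methionase in the drug both use the drug-treated vector libraries, with opposite signs, so they are not independent.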
